A study of Rattus norvegicus with 4 samples.

Results

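Cerebellins, GluD receptors, neurexins and neuroligins are proteins that join the sending and receiving sides of a synapse, and 8 of their genes were followed here: Cbln1, Cbln2, Cbln3, Grid1, Nrxn2, Nrxn3, Nlgn1 and Nlgn2. They were found by matching the accession of each array probe to RefSeq symbols, and each gene was represented by its brightest probe. All 8 were on the array, with 12 probes among them, out of 15443 named genes, and all 8 were well above background on all 4 arrays.

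RNA came from male rats of no stated strain or age, and the forced swimming test, where long immobility is read as depressive-like, had been used to score them. From 106 normal rats, animals with depressive-like scores and animals with average scores (control) were chosen. Of the rats 50 were killed, and the samples are recorded as 1 week after the swim. Tissue was a 1 mm slice, at 9.8 to 10.8 mm for cerebellum and 3.2 to 4.2 mm for prefrontal cortex. Equal RNA of 4 rats was pooled per group. The 4 groups were depressive cerebellum, control cerebellum, depressive prefrontal cortex and control prefrontal cortex, with 1 pool and 1 single-colour (Cy3) Agilent array each, all on 1 slide. A pool averages its rats, so the spread between animals was not measured.

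Neurexins sit in the presynaptic membrane and bind neuroligins across the cleft. They also bind cerebellins, secreted proteins of the C1q family, which in turn hold postsynaptic glutamate receptors of the GluD family, such as GluD1. In mouse cerebellum, granule cells secrete Cbln1 from their parallel fibres, and the bridge from neurexin through Cbln1 to the postsynaptic side keeps the synapses onto Purkinje cells. Neuroligin 1 is known from excitatory synapses and neuroligin 2 from inhibitory ones.

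The labels and files of this series disagree in places. The deposited value table, keyed by sample, was followed: each of its columns matched 1 scanner file at a correlation of 0.9999 or more, but for 2 samples, depressive cerebellum and control prefrontal cortex, this was the file linked to the other of them, and their own linked file matched at only 0.933. The free-text descriptions of both depressive samples also name the other tissue than their titles, source names and tissue labels, which were used. With files as linked, the tissue comparison below has 0 called genes. Markers checked the tissue of each matched array but cannot tell depressive from control. All 10 granule cell markers and 9 of 10 Purkinje cell markers were at least 2-fold higher in cerebellum in both states, and 9 of 11 measured cortical neuron markers were at least 2-fold lower, with Tbr1 and Fezf2 not well above background on either cerebellum array.

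The first question was how the 2 tissues differ. Cbln1 and Cbln3 were far higher in cerebellum and Cbln2 far lower, while the neurexins and Nlgn2 lay within a 2-fold range. Levels are given as processed signal in the scanner's units. Differences are log2 values after subtraction of each array's 75th percentile, cerebellum minus prefrontal cortex, so they need not equal a ratio of signals. The test was limma over 12449 genes with state as a block, 2 pools per tissue and 1 residual degree of freedom, with Benjamini-Hochberg adjustment, and a gene was called at an adjusted p under 0.05. It called 8681 genes, or 69.7% (32.3% higher and 37.4% lower in cerebellum). Of the 8 genes 6 were called, 3 in each direction, a share near that of all genes. In depressive pools alone, 2 of the 8 (Cbln1 and Cbln3) were at least 2-fold higher in cerebellum and 3 (Cbln2, Grid1 and Nlgn1) at least 2-fold lower, against 9.13% and 14.5% of all genes, 23.6% in all. Control pools gave the same 5 genes in the same directions, against 9.82% higher and 14.1% lower, 23.9% in all. Over both states 20.8% of genes did so. In bulk tissue, fewer cells of a type and less RNA per cell cannot be told apart.

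**Figure D1:**
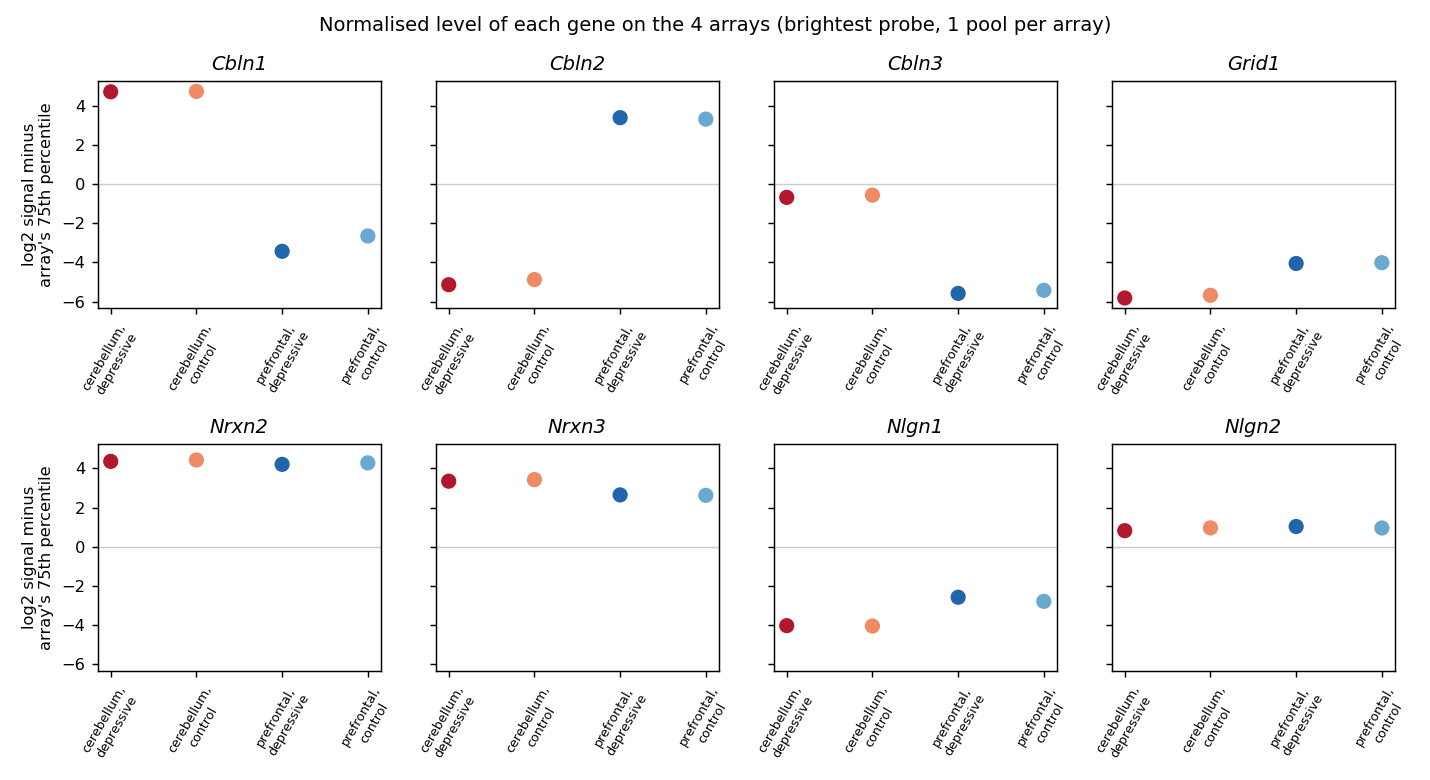
Level of each gene on each array, as log2 signal minus the array's 75th percentile (vertical axis), 1 point per pool. Cbln1 and Cbln3 are high on both cerebellum arrays, Cbln2, Grid1 and Nlgn1 on both prefrontal cortex arrays, and Nrxn2 and Nlgn2 are nearly level.

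Cbln1 (probe A_64_P042495), the cerebellin of granule cells, had signals of 114040 and 106529 on the depressive and control cerebellum arrays, against 303 and 496 on the depressive and control prefrontal cortex arrays. Both cerebellum values stand far above both cortical ones. The fit gave a difference of 7.76 (SE 0.23), or 217-fold, with a limma adjusted p of 0.00127. In cortex Cbln1 stood at 0.354% of its cerebellar level in depressive and 0.601% in control pools. Only 1.29% of genes tested differed by 5 or more on the log2 scale, and Cbln1 and Cbln2 were among them.

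Cbln3 (probe A_64_P042505), which in mouse depends on Cbln1 for its secretion, had signals of 2720 and 2708 in depressive and control cerebellum, against 68.3 and 72.4 in depressive and control prefrontal cortex. It was 29.4-fold higher in cerebellum, at 4.88 (SE 0.05, limma adjusted p 0.000861). The difference was 4.90 in depressive and 4.86 in control pools, so that the states lay close together. After normexp background correction, the fitted difference was 4.01.

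Cbln2 (probe A_42_P542985), a cerebellin of the forebrain that can bind GluD1, showed the opposite order. Its probe has 10 spots, which gave 104.4 to 145.1 on the depressive and 117.8 to 154.3 on the control cerebellum array, against 32484 to 35969 on the depressive and 29176 to 32505 on the control prefrontal cortex array. The 2 tissues do not approach each other in any spot. The fitted difference was -8.36 (SE 0.11, limma adjusted p 0.000861), or 328-fold lower in cerebellum, and it ranked 18th in size among the genes tested. Normexp background correction gave -7.64. Cerebellum held 0.271% of the cortical level in depressive and 0.343% in control pools.

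Grid1 (probe A_64_P082281), which encodes GluD1, had signals of 77.4 and 78.5 in depressive and control cerebellum, against 196.9 and 192.5 in depressive and control prefrontal cortex. The receptor gene was 3.28-fold lower in cerebellum, at -1.71 (SE 0.06, limma adjusted p 0.00144), the same direction as Cbln2. These are dim spots. Pooled over 2-spot probes of like brightness, the SE between spots was 0.35 for the depressive and 0.19 for the control tissue difference.

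Nlgn1 (probe A_64_P001177), the excitatory neuroligin, had signals of 267.4 and 242.7 in depressive and control cerebellum, against 548.6 and 451 in depressive and control prefrontal cortex. It was 2.56-fold lower in cerebellum, at -1.36 (SE 0.07, limma adjusted p 0.00269). Both cerebellum values were below both cortical ones.

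The promoters of Cbln2 and Nlgn1, both lower in cerebellum, are shown as RefSeq lists them in build GRCr8, from 250 bases before to 50 after the annotated start. Of the 8 genes 3 had an entry, and Nlgn2 was the other. Capitals mark the GC box (GGGCGG) and an E-box of neuronal bHLH factors (CAGATG), each searched on both strands, and overlapping matches run together.
Cbln2, chr18:82215953-82216252, plus strand: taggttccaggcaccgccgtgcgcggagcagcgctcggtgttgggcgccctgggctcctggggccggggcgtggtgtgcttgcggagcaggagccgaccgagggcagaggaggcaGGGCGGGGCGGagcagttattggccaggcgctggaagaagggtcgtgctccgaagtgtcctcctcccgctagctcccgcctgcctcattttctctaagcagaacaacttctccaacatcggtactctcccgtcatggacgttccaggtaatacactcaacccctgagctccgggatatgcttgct
Nlgn1, chr2:110930627-110930926, minus strand: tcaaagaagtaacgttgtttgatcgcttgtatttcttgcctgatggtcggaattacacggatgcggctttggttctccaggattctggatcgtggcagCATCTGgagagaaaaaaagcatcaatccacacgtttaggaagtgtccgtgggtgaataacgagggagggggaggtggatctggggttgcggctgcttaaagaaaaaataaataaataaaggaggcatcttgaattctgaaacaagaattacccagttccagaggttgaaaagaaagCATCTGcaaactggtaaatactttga
The windows differ in composition. That of Cbln2 was 64.0% G or C with 23 CpG dinucleotides and 2 GC boxes, and that of Nlgn1 43.3% with 10 CpG and 2 E-boxes. The window of Nlgn2, whose tissue difference was not called on its brightest probe, was 67.3% with 20 CpG and 3 GC boxes. Over 33469 promoters of this length the medians were 51.7% and 7 CpG, 33.1% held a GC box and 16.6% this E-box. TATAAA, in 14.2% of promoters, and the CRE TGACGTCA, in 1.83%, were in none of the 3 windows. A match here describes letters only.

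The neurexins differed far less between tissues than the cerebellins. Nrxn3 (probe A_43_P12942) had signals of 44365 and 43101 in depressive and control cerebellum, against 20486 and 19167 in depressive and control prefrontal cortex, and was 1.68-fold higher in cerebellum (0.75, SE 0.06, limma adjusted p 0.00435). Its other probe gave the same direction, at 0.99 (SE 0.07, limma adjusted p 0.00447 in a fit over 23326 probes, of which 63.3% were called).

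Nrxn2 (probe A_44_P172825) had signals of 89411 and 86370 in depressive and control cerebellum, against 60369 and 60429 in depressive and control prefrontal cortex. After scaling, the difference was 0.15 (SE 0.05, limma adjusted p 0.0749), which missed the threshold, although both cerebellum values lay above both cortical ones, as the arrays of 87.9% of genes did not overlap between tissues. Its other 2 probes gave 0.31 (SE 0.06, limma adjusted p 0.0289) and -0.021 (SE 0.07, limma adjusted p 0.807). With quantile normalization the brightest probe gave 0.34 and was called (limma adjusted p 0.0133), while the median of all genes moved to 0.07, against -0.04 as reported.

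Nlgn2 (probe A_64_P030188), the neuroligin of inhibitory synapses, had signals of 7704 and 7812 in depressive and control cerebellum, against 6694 and 6040 in depressive and control prefrontal cortex. On the scaled values the tissues overlapped, and the difference of -0.10 (SE 0.08, limma adjusted p 0.322) was not called. It came to 0.014 with quantile normalization. Its other probe did not overlap: 171.4 and 189.6 in depressive and control cerebellum, against 241 and 282.2 in depressive and control prefrontal cortex, a difference of -0.92 (SE 0.06, limma adjusted p 0.00353). The probes of Nlgn2 thus disagree on size, and the tissue difference of this gene is uncertain.

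**Figure D2:**
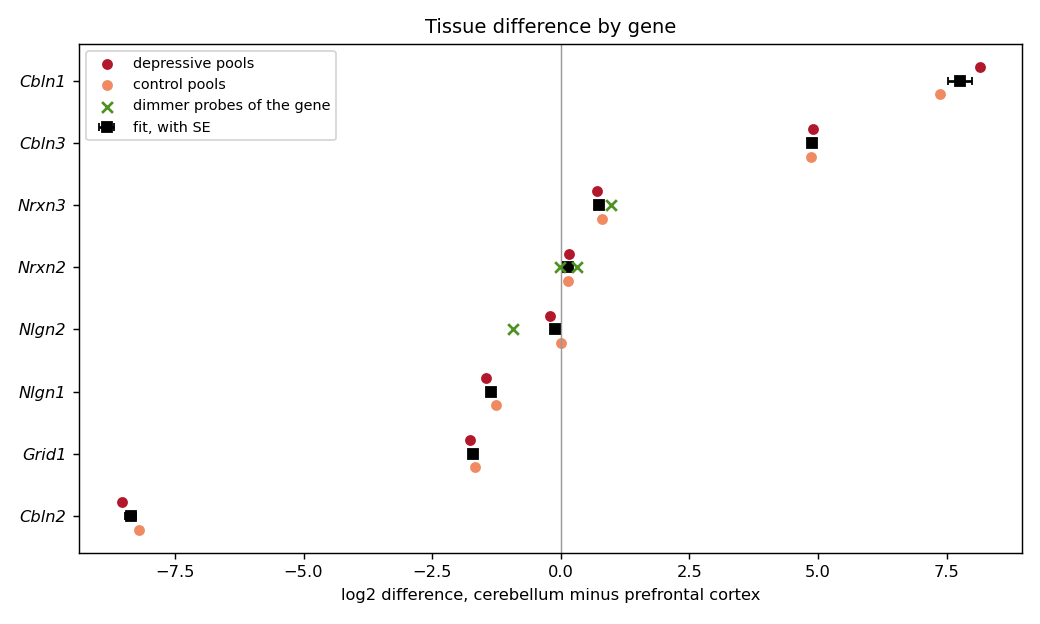
Tissue difference of each gene (horizontal axis, log2, cerebellum minus prefrontal cortex): squares with bars are the fit and its SE, circles the depressive and control pools alone, crosses the dimmer probes. Cbln1 at 7.76 and Cbln2 at -8.36 mark the ends, and the dimmer Nlgn2 probe lies at -0.92 beside -0.10 for the brightest.

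Further genes of the same families were also measured. Cbln4, a further cerebellin, was 31.8-fold lower (-4.99, SE 0.08, limma adjusted p 0.000885), near background in cerebellum at signals of 31.2 and 26.2 on the depressive and control arrays. Nlgn3, another neuroligin, was 1.60-fold lower (-0.67, SE 0.05, limma adjusted p 0.00402). The 4 cerebellin genes thus ran between -8.36 and 7.76, while Nrxn2 and Nrxn3 stood at 0.15 and 0.75.

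Of 74 genes listed as family members, further partners or modulators, 67 were on the array and 66 were tested. In cerebellum 13 were called higher and 44 lower, so that 86.4% were called, against 69.7% of all genes, and the median difference was -0.73, against -0.04 for all genes. Of 19 tested partners of neurexins and of the C1q-like system, 4 were higher and 11 lower. C1ql3, a C1q-like ligand of the adhesion receptor Adgrb3, was 16.1-fold lower (-4.01, SE 0.17), Lrrtm4, a postsynaptic neurexin partner, 13-fold lower (-3.71, SE 0.05), and Nxph4, a neurexophilin, 4.06-fold higher (2.02, SE 0.14). Of 23 neuroligin modulators and other trans-synaptic organisers 4 were higher and 17 lower, with Lrfn2, a synaptic adhesion protein that binds PSD-95, 66.2-fold lower (-6.05, SE 0.07), Slitrk6 3.89-fold and Slitrk4 2.48-fold higher. Of 20 intracellular partners 4 were higher and 14 lower. Among these, Grid2ip, the Purkinje cell scaffold delphilin, was 10.1-fold higher (3.34, SE 0.11) and Lin7b, a PDZ scaffold, 9.35-fold lower (-3.23, SE 0.05).

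**Figure D3:**
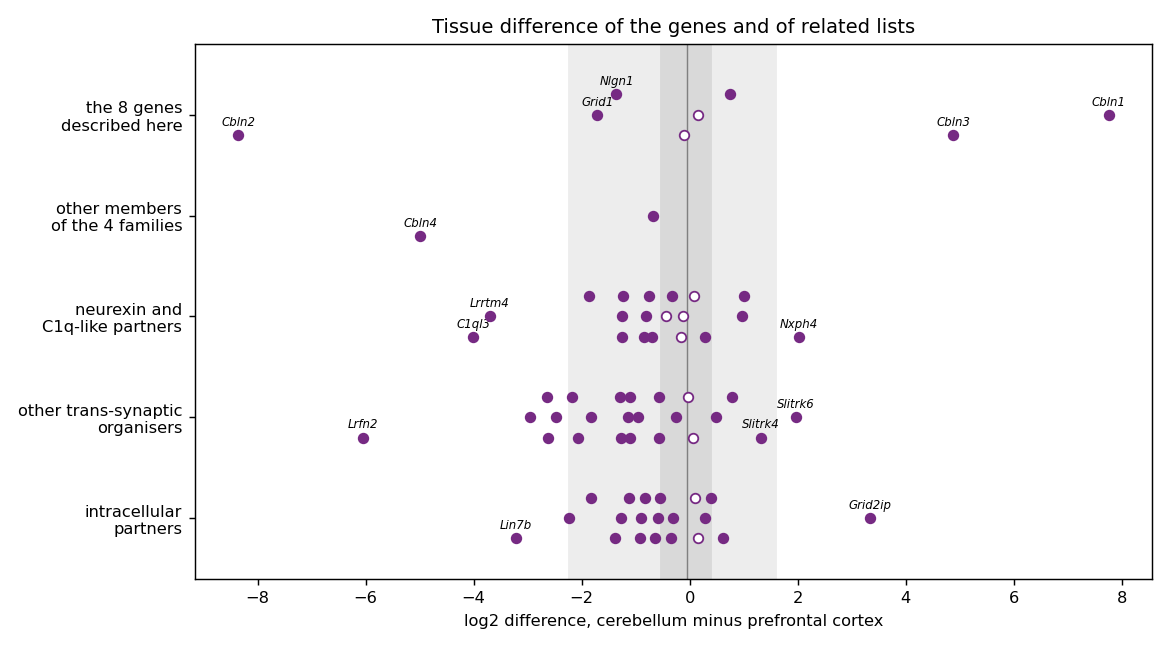
Tissue difference (horizontal axis, log2, cerebellum minus prefrontal cortex) of the 8 genes and of 4 related lists, 1 point per gene, filled where called at an adjusted p under 0.05; genes not reported here are not drawn. Shading spans the middle 50% and 90% of all genes tested, and Grid2ip, Cbln4 and Lrfn2 lie outside it, as do Cbln1, Cbln2 and Cbln3.

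The genes with the most similar pattern over the 4 arrays were sought in the 11615 other genes that every array measured well above background, by the root mean square difference after each gene's mean was removed. For Cbln1 these were Uncx, a homeobox gene (0.23 on the log2 scale), and Pcp2, a Purkinje cell gene (0.26). For Cbln2 they were Nrgn, neurogranin (0.23), and Cort, cortistatin (0.24). Within 0.1 of Cbln1 or of Cbln2 lay 0 genes. Cbln3 lay closest to St14 (0.03) and Casq2 (0.07), with 2 genes within 0.1. Grid1 was closest to Lmo1 and Cpne8 (0.01 each), Nrxn3 to Adi1 (0.003) and Slc49a4 (0.01), and Nlgn1 to Fbn2 (0.02) and Npr3 (0.03). Within 0.1 of these last genes lay 130, 750 and 123 genes, so such a neighbour singles out little for them.

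The second question was whether depressive and control pools differ. With 1 array per group there is no test within a tissue, and none of the 8 genes differed by 2-fold in either tissue, against 1.1% of 12674 genes in cerebellum (0.757% higher and 0.347% lower) and 0.788% of 12568 in prefrontal cortex (0.461% higher and 0.326% lower). Differences below are log2 values, depressive minus control. Their SE between spots is technical, and comes from 2-spot probes of like brightness rather than from the gene's own spots. In a limma fit of state over 11616 genes with tissue as a block, 0 genes were called, while 904 (7.78%) passed 0.05 before adjustment, and the labels do not say whether the tissues came from the same rats. Adjusted p of the 8 genes in that fit lay between 0.644 for Cbln3 and 0.908 for Nlgn2. After normexp background correction 5 genes passed.

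Cbln1 in the prefrontal cortex had the largest state difference of the 8. Its spots read 313.2 and 293 on the depressive array, against 517.6 and 475.3 on the control array, and the ranges do not overlap. The difference was -0.78 (SE 0.08), or 1.72-fold. It lay between -0.81 and -0.65 under the 7 alternatives that kept the matched arrays. Changes of filter and averaging over probes could not move it, as Cbln1 has 1 probe and passed every filter. Between states in the prefrontal cortex, 0.549% of genes were as low or lower. In the cerebellum Cbln1 differed by -0.02 (SE 0.05). The tissue difference was accordingly 8.14 in depressive and 7.38 in control pools, and this gap of 0.76 was not tested.

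Some markers of cerebellar cells moved with Cbln1 in the cortex. Of 9 granule cell markers measured there 3 were below 0, with a median of 0.02 and summed levels of 10.96 times the 75th percentile in the depressive and 10.72 in the control pool. Of 10 Purkinje cell markers 9 were below 0, with a median of -0.14 and summed levels of 39.5 in the depressive and 44.6 in the control pool. Among all genes 52.7% were below 0 in this comparison. The granule cell markers brightest in cortex, Gabrd and Grm4, differed by 0.02 and 0.01, and the Purkinje cell markers brightest there, Itpr1 and Gng13, by -0.09 and -0.26. The markers at least 2-fold lower in depressive cortex, named after their values were seen, were dimmer: Gabra6 (-1.30), Pcp2 (-1.23, signals of 277.1 in the depressive and 619.5 in the control pool) and Ppp1r17 (at least 3.06-fold). Fat2, a granule cell gene, was not well above background on either cortical array. Cbln3 differed by -0.16 (SE 0.18) there. The part of these markers in the Cbln1 value was not tested.

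Cbln2 differed by -0.26 (SE 0.14) in cerebellum, and 8.89% of genes were as low or lower. The lowest signal well above background was 15.2 on the depressive and 8.36 on the control cerebellum array. Cbln2 was dim there, at 123.9 in the depressive and 136.6 in the control pool, and normexp background correction gave -0.18. Of its 10 spots 9 were lower on the depressive array after scaling, but the ranges overlap. Beside it, 6 of 8 measured cortical neuron markers were below 0 in cerebellum, against 59.9% of all genes. The markers had a median of -0.10 and summed levels of 7.34 times the 75th percentile in the depressive and 7.77 in the control pool. The cortical markers brightest in cerebellum, Npy and Cux2, differed by 0.29 and -0.06. Crym and Nrgn, the brightest in cortex, differed by -0.68 each in cerebellum, where Nrgn had signals of 247 in the depressive and 363.8 in the control pool. Their part in the Cbln2 value was not tested. In the prefrontal cortex, where Cbln2 is bright, the difference was 0.075 (SE 0.02), with all 10 spots above 0. These spots share the scaling of their arrays, so their agreement is technical and does not measure a difference between rats. The upper quartile of all genes in this comparison was 0.071, close to the Cbln2 value.

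**Figure D4:**
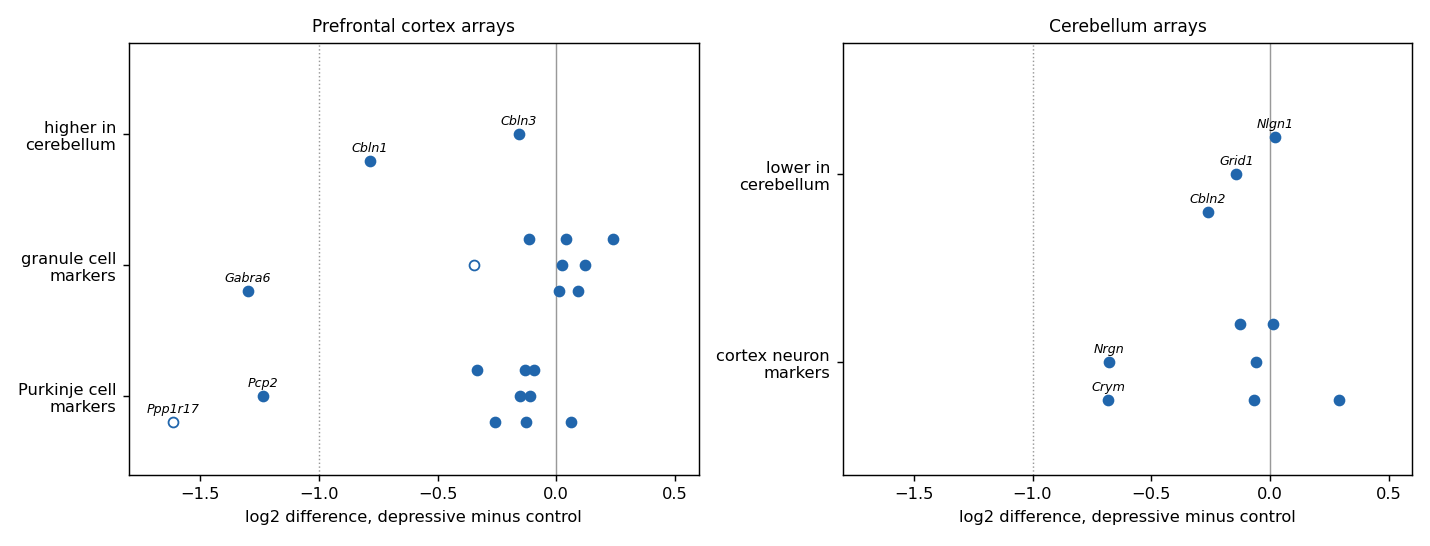
State difference (horizontal axis, log2, depressive minus control) in prefrontal cortex for genes and markers high in cerebellum, and in cerebellum for genes and markers high in cortex, with open points where 1 array was not well above background and genes not reported here not drawn. Cbln1 at -0.78 lies between most granule cell markers and Gabra6, and Cbln2 at -0.26 lies between Nrgn and most cortical markers.

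On their brightest probes the other genes differed by 0.21 or less. Nlgn1 in the prefrontal cortex was at 0.21 (SE 0.09), with spots of 548.6 and 548.7 in the depressive and 458.1 and 443.9 in the control pool, and 8.35% of genes were as high or higher. In cerebellum it differed by 0.02 (SE 0.16). Nlgn2 was at -0.14 (SE 0.06) in cerebellum and 0.08 (SE 0.05) in cortex, where the mean over its probes gave -0.11 in place of 0.08. Its dimmer probe was at -0.27 (SE 0.29) in cerebellum and -0.30 (SE 0.12) in cortex.

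Nrxn2 differed by -0.07 (SE 0.07) in each tissue on its brightest probe. Its dimmer probes gave -0.12 and -0.01 (SE 0.08 each) in cerebellum. In cortex they gave -0.25 and -0.11 (SE 0.08 each), and the mean over its probes was -0.15. Nrxn3 was at -0.08 (SE 0.05) in cerebellum and 0.02 (SE 0.05) in cortex. Grid1 was at -0.14 (SE 0.37) in cerebellum and -0.04 (SE 0.16) in cortex, where its dim spots could not show a small difference. Cbln3 in cerebellum was at -0.11 (SE 0.06). Of the 8 genes 7 were below 0 in cerebellum, against 59.9% of genes, and 4 in prefrontal cortex, against 52.7%. Both counts depend on the scaling, as quantile normalization put Cbln1 in cerebellum at 0.021 and Nrxn2 in cortex at 0. Of the 66 related genes tested, 0 differed by 2-fold between states in either tissue.

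**Figure D5:**
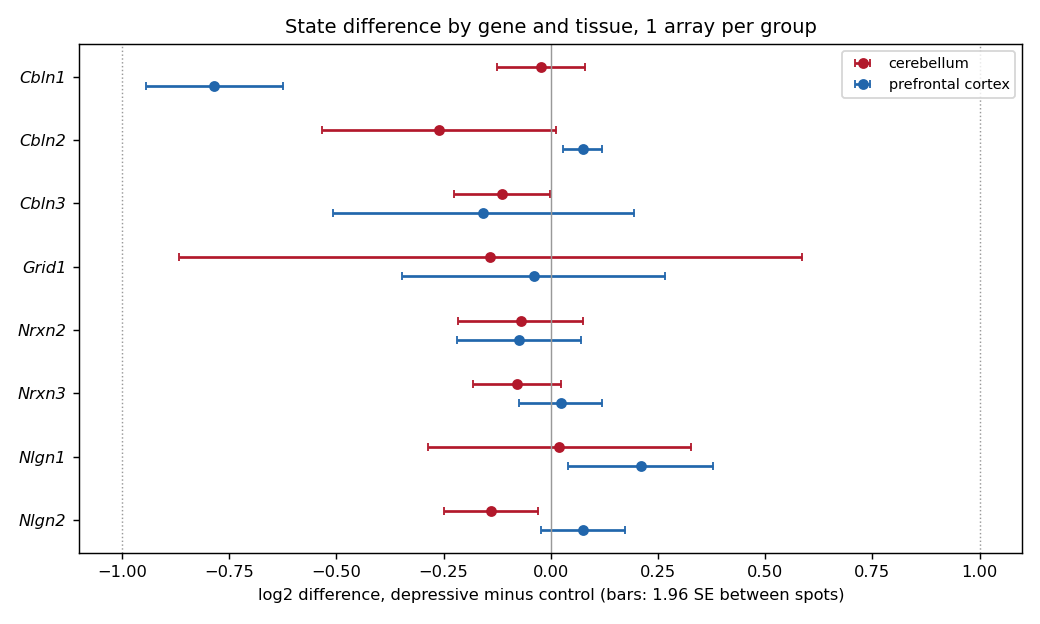
State difference of each gene (horizontal axis, log2, depressive minus control) in cerebellum and prefrontal cortex, with bars of the 95% interval that the SE between spots gives and dotted lines at 2-fold. No gene reaches 2-fold, and Cbln1 in the prefrontal cortex lies lowest at -0.78.

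The depressive and control pools differed more in some other cell markers than in the 8 genes. All 3 red cell markers were at least 2-fold higher in the depressive pool in both tissues (median 1.74 in cerebellum and 1.72 in prefrontal cortex). In cortex 4 of 5 measured choroid plexus markers were at least 2-fold lower (median -1.26). The 5 markers ran from -2.15 to 0.57, and some of them were dim there. Their median is a bound, from a marker not well above background in the depressive pool. In cerebellum 5 of 6 were above 0 (median 0.67), none at 2-fold. Meningeal markers were above 0 in 6 of 6 in cortex (median 0.87) and 5 of 6 in cerebellum (0.14), and oligodendrocyte markers in 7 of 7 in cortex (0.37) and 4 of 7 in cerebellum (0.01). Astrocyte markers were above 0 in 2 of 6 in each tissue, and microglia markers in 1 of 6 in cortex and 5 of 6 in cerebellum. Among all genes 59.9% were below 0 in cerebellum and 52.7% in cortex. In cerebellum 10 of 10 granule cell and 9 of 10 Purkinje cell markers were below 0 (medians -0.10 and -0.14), and in cortex 9 of 11 cortical neuron markers were (median -0.04). The part of these markers in the values of the 8 genes was not tested.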

How the data were processed

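The deposited scanner files hold an intensity per spot, background-subtracted within the array by Agilent Feature Extraction 10.7.1.1 (protocol GE1_107_Sep09, design build rn4), per the file headers. Other flags per spot come from the same deposited files. The deposited value table lists 23207 probes as an intensity divided by 1 number per array, chosen in a way not given in the sources used here. Here, control spots and outlier spots were left out, log2 signal was averaged over spots and each array's 75th percentile subtracted (4370, 4020, 3278 and 3116 for depressive and control cerebellum and depressive and control prefrontal cortex). A probe counted as well above background when at least 50% of its unflagged spots carried that mark. Of 30367 probes 18355 were named through RefSeq GRCr8 accessions. Genes well above background on both arrays of at least 1 tissue were fitted with limma 3.58.1 in R 4.3.3, checked on simulated data. SE between spots was pooled over 2-spot probes in 20 brightness bins. Folds against an array not well above background are bounds, taken at the higher of the gene's own signal there and that array's lowest signal well above background. Members and lists were chosen with earlier results of these data known. Named are the 8 genes, other family members, the 5 related genes with the largest called difference each way, the 2 markers of a list brightest in the tissue shown or in their own tissue and the 2 nearest genes by pattern. Some genes of the lists count in the totals but are not reported here. The number of arrays limits the precision.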

Additional observations from a re-analysis of the deposited data

How the results depend on the processing

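Cbln1, Cbln2, Cbln3, Grid1, Nrxn3 and Nlgn1 kept their direction and call in the tissue fit under all 12 alternatives that kept the matched arrays, including those leaving out each array (highest adjusted p 0.0205). Their sizes moved by over 1.5-fold only with normexp, to 4.01 for Cbln3 and -7.64 for Cbln2. With 1 array left out, state was no block and the lone array was assumed to vary like the other tissue's, and 6844 to 7968 genes were called. The share of called genes that were higher in cerebellum was 55% with quantile normalization, against 46.3% as reported. Nrxn2 was called in 4 of the 12 and Nlgn2 in 1. Nlgn2 turned to 0.014 with quantile normalization, and a dimmer Nrxn2 probe, examined after seeing the data, gave -0.021. With scanner files as linked to samples, tissue and state trade places: the tissue fit called 0 genes (0 related genes), the state fit 8458, genes at 2-fold numbered 99 and 140 between tissues in depressive and control rats and 3090 and 2991 between states in cerebellum and prefrontal cortex, and Cbln2, Grid1 and Nlgn2 turned to 0.093, 0.091 and 0.033. Against 140 and 99 genes at 2-fold between states in cerebellum and prefrontal cortex, normexp gave 30 and 14, restriction to genes that passed background on every array 41 and 32, no filter on dim probes 347 and 259. In the deposited values the cerebellum count was 72. Normexp raised the state fit to 5 called genes against 0. The cause was not tested except where fewer or more dim genes were counted by construction. The files lack a mean spot signal, so normexp used the median signal. State was a block in the tissue fit and tissue in the state fit, and without the state block the tissue fit called 8777 genes. No further pairing, by replicate or animal, could be made with 1 pool per group, and slide could not be a block because all arrays lie on 1 slide. Dim signals limit Grid1, and Cbln2 in cerebellum.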

Other observations

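Among the related genes, named after their values were seen, Lrfn5, a synaptic adhesion protein, had the largest state difference in cerebellum, with signals of 315.8 in the depressive and 166.1 in the control pool (0.81 on the log2 scale, depressive minus control), and -0.05 in prefrontal cortex. C1ql3 was at 0.48 in cerebellum, with 2656 in the depressive and 1750 in the control pool, and -0.07 in cortex. In prefrontal cortex the largest was Slitrk6, with 158.4 in the depressive and 91.5 in the control pool (0.72), and 0.03 in cerebellum. These are single arrays without a test.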
